A study of Mus musculus with 32 samples.

Results

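Unirradiated Scid blood was compared with unirradiated ATM-deficient blood across 15159 genes detected on the arrays. The comparison rests on 10 arrays, 5 labelled Scid 0 Gy and 5 labelled ATM-KO 0 Gy (called Atm 0 Gy here), of 32 arrays in the series. They were chosen by the titles of the samples, and no measured value entered the choice. Each array held globin-reduced whole blood RNA of 1 male mouse, C57BL/6 per the labels, bled by cardiac puncture 24 h after sham treatment. The mice carried either the Scid genotype or ATM-/-, and neither group received X-rays. The other groups used below were 6 wild-type mice at 0 Gy (WT 0 Gy), 5 Scid mice at 3 Gy and 6 ATM-/- mice at 4 Gy. The fit also took in 5 wild-type mice at 8 Gy, so that the spread of each gene was estimated from all 32 arrays. Age, and whether a Scid mouse still had some lymphocytes, were not given in the sources used here.

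Scid is a mutation of Prkdc, the catalytic subunit of the DNA-dependent protein kinase, which takes part in the joining of broken DNA ends. B and T cells need this joining to assemble their antigen receptor genes by V(D)J recombination, and without it few of them mature, while natural killer (NK) cells and myeloid cells form without receptor rearrangement. ATM is a kinase that signals double-strand breaks, and ATM-deficient mice are known for reduced but present T cells and for B cells in the blood. Blood shows these cells by the transcripts of their receptors, so a whole-blood array reads the makeup of the blood along with the state of its cells. In bulk blood, fewer cells of a type and less RNA per cell cannot be told apart.

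The labels could not be checked on the targeted genes. Neither Atm probe and not the Prkdc probe passed the detection filter, since they were well above background on at most 3 of 32 arrays. The Y-linked genes Eif2s3y and Ddx3y passed it, and both Xist probes did not. Between 25.0 and 47.7% of probes were well above background on the Scid arrays and between 36.6 and 43.4% on the Atm arrays.

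Lymphocyte transcripts set 3 libraries apart from others of their label. The library labelled Scid 0 Gy replicate 4 carried B cell transcripts such as Cd79b and the T cell transcript Cd3d at levels near those of Atm blood, and the other 4 Scid arrays did not, whereas the ranges of Cd3e, Cd4 and Cd8b1 overlapped between the other Scid arrays and the Atm arrays. Across all genes it correlated best with WT 0 Gy replicate 2 (Pearson r = 0.973 over genes, which are not independent replicates). The libraries labelled WT 0 Gy replicates 3 and 6 in turn lacked B cell transcripts: Cd79b read -2.38 and -2.81 there, against 4.03 to 6.37 on the other 4 WT arrays. WT 0 Gy replicate 3 lay on the same slide as Scid 0 Gy replicate 4 and correlated best with Scid 0 Gy replicate 2 (r = 0.979). Whether these 3 libraries carry the right labels was not tested, and every direction drawn below holds for the groups as labelled. No sample was moved or left out of the main comparison. The main results are given with and without Scid 0 Gy replicate 4, and since that array was singled out by its lymphocyte transcripts, lymphocyte differences without it are a description.

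After Cd79b, the widest gaps were on probes for immunoglobulin light chains, parts of the B cell receptor that V(D)J recombination assembles. Their 60-base sequences, from the deposited scanner files and with positions in build mm9, are shown because they say which chain each value belongs to and because 2 of them are not independent. Capitals mark the 42 bases that the 2 lambda probes share.
Immunoglobulin lambda constant 2 (ENSMUST00000103749, chr16:19198651-19198710): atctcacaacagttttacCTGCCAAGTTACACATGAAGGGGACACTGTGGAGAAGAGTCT
Immunoglobulin J-C lambda 3 cluster (AF138742, chr16:19065462-19065521): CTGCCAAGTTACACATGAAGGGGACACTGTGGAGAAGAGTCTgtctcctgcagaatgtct
Immunoglobulin kappa constant (ENSMUST00000103410, chr6:70676692-70676751): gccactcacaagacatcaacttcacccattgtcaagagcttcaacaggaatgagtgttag
The kappa probe shared no run longer than 7 bases with either lambda probe. The strand of these probes is not given in the sources used here. The sequences are therefore printed as the files hold them, and the values of the lambda pair cannot be split between the 2 genes.

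Immunoglobulin light chains and genes of the B cell lists led the difference. With all 10 arrays, 19 genes (0.125% of the 15159 tested) were lower in Scid than in Atm blood and 0 were higher (0%), by limma with Benjamini-Hochberg adjustment. An unadjusted p under 0.05 was reached by 1540 genes (10.2%). The 19 differences ran from -2.77 to -6.89 on the log2 scale. Their adjusted p-values all lay between 0.0491 and 0.0494, just inside the threshold of 0.05, and 21 of 29 alternative settings left 0 genes lower. Among these settings was the fit of the 10 arrays alone (adjusted p of the 19 from 0.162 to 0.221, limma). All 19 were lower in each of the settings that measured them. All 19 were well above background on every Atm array and on Scid 0 Gy replicate 4, and 14 of them were not well above background on any of the other 4 Scid arrays, where their signal is only an upper bound. Without Scid 0 Gy replicate 4, 184 genes were lower (1.21%) and 19 higher (0.125%), and the 184 included all 19.

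Levels below are log2 signal relative to the 75th percentile of the array, and are compared between arrays, not between genes. Cd79b, a signalling chain of the B cell receptor, read -2.25, -3.12, -3.37, 5.41 and -2.28 on Scid replicates 1 to 5 and 5.35, 5.97, 5.09, 6.49 and 5.96 on the Atm replicates. Scid replicate 4 lay inside the Atm range and the other 4 lay far under it. The difference was -6.89 ± 1.45 (log2, SE from the fit of all 32 arrays, n = 5 and 5, adjusted p = 0.0494, limma), and -8.53 without replicate 4. Against those 4 arrays, none of which measured Cd79b well above background, Atm blood was 141-fold higher by a rough limit. This limit sets the Atm mean against the higher of the probe's own signal and the lowest signal well above background on each Scid array. That lowest signal is taken over all probes of the array, so 141-fold is not a guaranteed minimum. Across all settings the Cd79b difference ran from -8.53 to -3.06 (log2).

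Immunoglobulin kappa constant read -1.41, -2.71, -2.67, 5.58 and -1.48 on the Scid arrays and 5.65, 6.95, 5.16, 6.72 and 5.84 on the Atm arrays. Again only replicate 4 of the Scid arrays reached the Atm range, and the ENSMUST00000103410 difference was -6.60 ± 1.36 (log2, SE; adjusted p = 0.0494, limma). By the same rough limit Atm blood was 173-fold higher than the other 4 Scid arrays. Across all settings the ENSMUST00000103410 difference ran from -8.13 to -3.43 (log2). ENSMUST00000103749, the lambda constant 2 probe, differed by -6.82 and its partner AF138742 by -6.70. Of the variable-region transcripts, Iglv1 was lower by 5.10, AY679096 by 4.45 and AB663493 by 3.47 on the log2 scale. Immunoglobulin heavy constant mu (ENSMUST00000103426), the heavy chain of IgM, had a difference of -4.44 that did not pass (adjusted p = 0.0644, limma). These unnamed immunoglobulin transcripts, and Btla, were picked for mention after their values were seen.

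**Figure D1:**
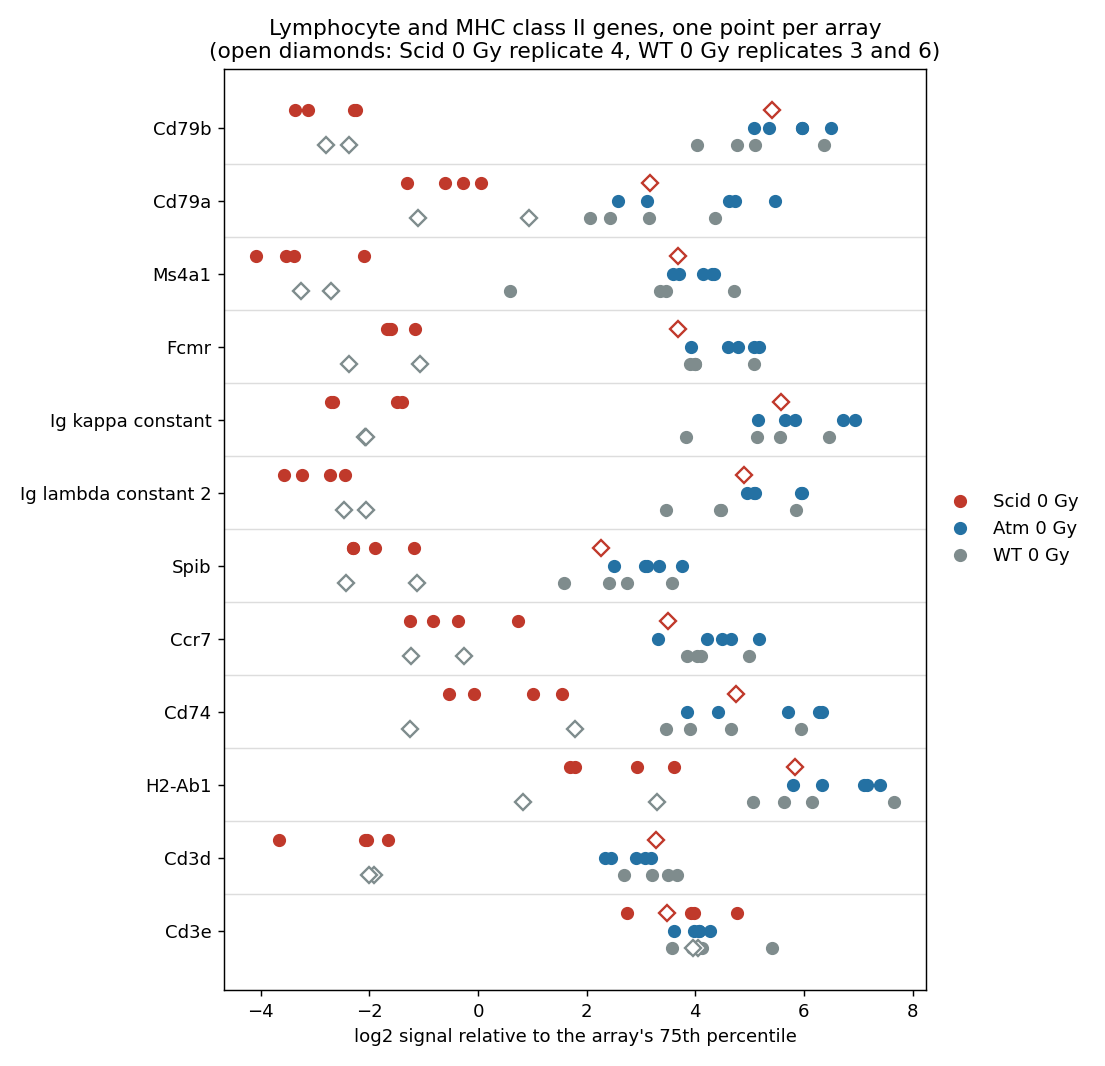
Log2 signal relative to the array's 75th percentile (x axis) for 12 genes (y axis), with 1 point per array for Scid 0 Gy (red), Atm 0 Gy (blue) and WT 0 Gy (grey). Open diamonds mark Scid 0 Gy replicate 4, which sits with the Atm arrays (Cd79b 5.41), and WT 0 Gy replicates 3 and 6, which sit with the other Scid arrays (Cd79b -2.38 and -2.81); Cd3e shows no such split.

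Of the 13 tested genes of B cell receptor and signalling, 3 fell (Cd79b, Cd79a and Bank1), beside 0.125% of all genes, and 12 had a lower mean, beside 41.9% of all genes. The median difference was -2.65, where the median over all genes was 0.14. Without Scid 0 Gy replicate 4, 7 of the 13 were called lower (1.21% of all genes), among them Blnk (-5.60), an adaptor behind the receptor, Fcrla (-4.68) and Vpreb3 (-2.95). Cd79a, the partner of Cd79b, differed by -3.89, but its probe is placed on chromosome 12 in the files where RefSeq (GRCm38.p6) has the gene on chromosome 7. Its other probe differed by -0.55 (adjusted p = 0.603, limma), so the Cd79a value is uncertain. Bank1, a B cell scaffold protein, was lower by 3.42 on the log2 scale.

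Of 18 tested B cell identity genes, 3 fell (Ms4a1, Fcmr and Spib; 0.125% of all genes), 15 had a lower mean (41.9% of all genes), and the median difference was -1.94. Ms4a1, which encodes CD20, read -3.39, -3.54, -4.09, 3.68 and -2.09 on the Scid arrays and 4.14, 4.31, 3.71, 4.34 and 3.59 on the Atm arrays. Scid replicate 4 was the sole Scid array within the Atm range, and the difference was -5.90 ± 1.28 (log2, SE; adjusted p = 0.0494, limma). Fcmr, the receptor for the constant part of IgM, read -1.15, -1.61, -1.64, 3.69 and -1.68 in Scid and 4.61, 4.78, 3.92, 5.18 and 5.08 in Atm blood. Here the groups did not overlap, as for 190 of all genes tested (1.25%), although replicate 4 came close to the lowest Atm array. Fcmr was lower by 5.19 and the transcription factor Spib by 4.24 on the log2 scale.

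Without replicate 4 the called B cell identity genes numbered 10 of 18 (1.21% of all genes), among them the coactivator Pou2af1 (-5.47), the follicle-homing receptor Cxcr5 (-5.38) and the lineage factor Ebf1 (-3.03). Pax5, another lineage factor, differed by -0.58 with all arrays and did not pass (adjusted p = 0.682, limma); its probe was well above background on 1 of 5 Scid and 4 of 5 Atm arrays. Outside these lists, the inhibitory receptor Btla was lower by 4.31, Ly6d, a marker of early B lineage cells, by 4.71, Tlr1 by 2.86 and Trp53i11 by 2.77 on the log2 scale.

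MHC class II genes, which present antigen to CD4 T cells and are carried by B cells, dendritic cells and monocytes, had lower means in Scid blood for 10 of 10 tested, with a median of -2.89, and 1 of them, H2-Oa, passed the test. Over all genes 41.9% had a lower mean and 0.125% were called lower. H2-Oa, part of the H2-O modulator found mainly in B cells, read -1.67, -1.69, -2.41, 1.40 and -1.96 on the Scid arrays and 2.23, 2.03, 0.87, 2.62 and 2.28 on the Atm arrays. Scid replicate 4 exceeded the lowest Atm array and the other 4 were below all of them, a difference of -3.27 ± 0.63 (log2, SE; adjusted p = 0.0491, limma). Cd74, the invariant chain, read -0.08, 1.02, 1.55, 4.75 and -0.54 against 4.42, 6.28, 3.84, 6.33 and 5.70, and its difference of -3.98 did not pass (adjusted p = 0.0644, limma).

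H2-Ab1, a class II beta chain, stayed well above background on all 10 arrays. It read 1.78, 2.92, 3.61, 5.83 and 1.69 on the Scid arrays and 6.33, 7.16, 5.80, 7.11 and 7.40 on the Atm arrays, so that class II signal was lower but measurable in the 4 Scid arrays. Its difference was -3.59 (adjusted p = 0.0729, limma). Without replicate 4, which was singled out by its lymphocyte transcripts, 8 of the 10 genes were called lower (1.21% of all genes), with H2-Aa at -3.96 and H2-Eb1 at -3.26. The monocyte list, whose cells also carry class II, had a median difference of -0.24 with 0 of 26 genes called.

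Promoter stretches of 3 class II genes are shown because the 3 hold the same letters and had lower means in Scid blood, although with all arrays H2-Oa alone of them passed the test (adjusted p = 0.0867 for H2-Aa and 0.229 for H2-Eb1, limma). The letters CTGATTGG, those of the Y box known from class II promoters, were first noticed in the H2-Oa promoter itself and then searched on both strands of the 250 bases before each RefSeq start (GRCm38.p6). Capitals mark the match.
H2-Oa (chr17:34092313-34092360, + strand): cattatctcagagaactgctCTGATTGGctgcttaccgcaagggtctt
H2-Aa (chr17:34287847-34287894, - strand): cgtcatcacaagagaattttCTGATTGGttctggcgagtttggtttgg
H2-Eb1 (chr17:34305785-34305832, + strand): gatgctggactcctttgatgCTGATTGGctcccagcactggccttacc
Apart from H2-Oa, which supplied the letters, 2 of 7 class II promoters in the RefSeq table held them (28.6%). The share was 3.83% of all 32850 other promoters and 4.6% of those of tested genes. H2-DMa, H2-DMb1, H2-DMb2 and H2-Ob were searched without a match and also had lower means in Scid blood. The octamer ATGCAAAT was likewise first seen in a member, Ccr6. Of the 19 genes that fell, 9 had promoters in the RefSeq table (11 promoters). Cd79b, Ms4a1, Ccr7, Ly6d and the immunoglobulin transcripts were not among them and were not searched. Apart from Ccr6, the octamer was found in 0 of 9 searched promoters of the genes that fell, in 1.6% of all promoters and in 1.28% of those of tested genes. The palindrome of EBF sites and the ETS letters ACTTCCGG, taken from general knowledge, were each in 0 of 11 promoters of the genes that fell and in 0 of 8 class II promoters. They were in 0.779 and 2.88% of all promoters, and in 0.902 and 5.01% of those of tested genes. These are matches of letters in a window and no test was made of them.

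**Figure D2:**
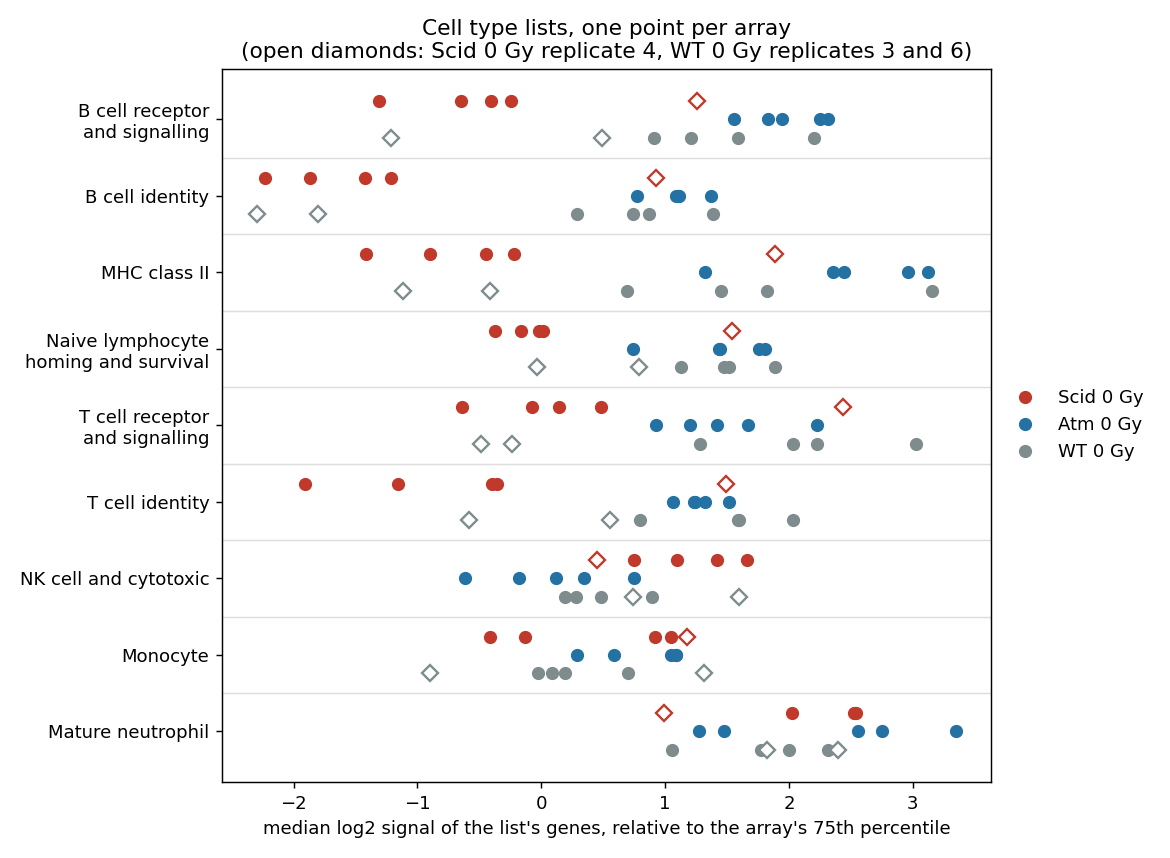
Median log2 signal of the genes of 9 cell type lists (x axis, relative to the array's 75th percentile), with 1 point per array for the 3 groups at 0 Gy. For B cell receptor genes the Scid arrays other than replicate 4 (open red diamond, 1.26) lie between -1.31 and -0.25 and the Atm arrays between 1.55 and 2.32, whereas monocyte and neutrophil lists overlap between the groups.

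Genes of naive lymphocyte homing and survival, shared by B and T cells, included 2 that fell of 15 tested (0.125% of all genes), and 14 had a lower mean (41.9% of all genes), with a median of -1.26. Ccr7, the receptor that guides lymphocytes into lymph nodes, read -0.83, -0.37, -1.25, 3.50 and 0.73 in Scid and 4.48, 4.22, 3.32, 4.66 and 5.18 in Atm blood, a difference of -4.02 ± 0.87 (log2, SE; adjusted p = 0.0494, limma). Ccr6, a chemokine receptor of B cells and some T cells, was lower by 3.02. Without replicate 4, 6 of the 15 were called lower (1.21% of all genes), with S1pr1, Foxo1, Dapl1 and Ltb added.

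T cell genes were divided. None of 17 tested genes of T cell receptor and signalling and none of 16 T cell identity genes passed the test in either direction, with medians of -0.63 and -0.83. Cd3d, a chain of the T cell receptor complex, read -2.04, -3.66, -2.09, 3.27 and -1.65 on the Scid arrays and 3.18, 3.07, 2.34, 2.91 and 2.45 on the Atm arrays. Scid replicate 4 was above all Atm arrays and the other 4 were far below, so the difference of -4.03 did not pass (adjusted p = 0.13, limma), and it was -5.15 without replicate 4.

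Cd3e, another chain of the same complex, read 3.97, 3.91, 2.75, 3.48 and 4.77 in Scid and 3.60, 4.27, 4.08, 4.07 and 3.97 in Atm blood. The groups overlapped fully and the difference was -0.22 (adjusted p = 0.791, limma). Cd4 and Cd8b1, coreceptor genes and the 2 brightest of the list, differed by 0.24 and 0.53, while the other CD8 chain, Cd8a, differed by -2.02 (adjusted p = 0.104, limma). Without replicate 4 the called T cell genes were Cd3d and Cd8a (2 of 17) and Cd2, Cd6 and Lef1 (3 of 16), all lower, beside 1.21% of all genes. With all arrays another Cd6 probe differed by 0.52 (adjusted p = 0.635, limma), so the Cd6 value is uncertain. Other probes of Cd2 and Lef1 differed by -1.97 and -1.75. Among the brightest identity genes, Thy1 differed by -1.77 and Cd226, which NK cells and platelets also carry, by 0.91.

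NK cell and cytotoxic genes had higher means in Scid blood for 28 of 28 tested, with differences from 0.13 to 1.82 and a median of 1.06, and 0 of them passed the test (adjusted p from 0.296 to 0.896, limma). An unadjusted p under 0.05 was reached by 11 of them (39.3%), against 10.2% of all genes, and over all genes 58.1% had a higher mean. Under other scalings 1 (quantile, array median) to 9 (spike-in) of the 28 had a lower mean, and spike-in scaling moved the median of all genes to -0.48. In irradiated blood, Scid 3 Gy against Atm 4 Gy, 19 of the 28 had a higher mean and 9 a lower one. The median there was 0.26 with 0 called, and 42.4% of all genes had a lower mean. Gzma, which encodes granzyme A, read 6.69, 6.37, 6.48, 3.61 and 6.54 on the Scid arrays and 5.72, 5.24, 3.99, 4.56 and 3.97 on the Atm arrays. Scid replicate 4 was the lowest of all 10 and the other 4 were the highest.

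Scid replicate 4 was also the lowest Scid array for the NK receptor genes Klrd1, Ncr1 and Klrb1c, but not for Klrk1. Klrd1, which encodes CD94, read 2.36, 1.99, 2.18, 0.82 and 2.46 in Scid and 0.79, 1.33, 0.50, 0.85 and -0.08 in Atm blood, a difference of 1.28 (adjusted p = 0.404, limma). Ncr1, the activating receptor NKp46, differed by 1.41, Klrb1c by 1.36 and Klrk1 by 1.63, none past the threshold. Ncr1 was well above background on 4 of 5 Scid and 2 of 5 Atm arrays. Klrk1 was so on 3 of 5 Scid and 1 of 5 Atm arrays, and it passed the detection filter only through the WT 8 Gy arrays. The differences of Ncr1 and Klrk1 thus rest partly on signal near background. Ccl5, the brightest of the list, differed by 0.48. Each array is scaled to its own 75th percentile, so these levels are relative to the other transcripts of the same blood.

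**Figure D3:**
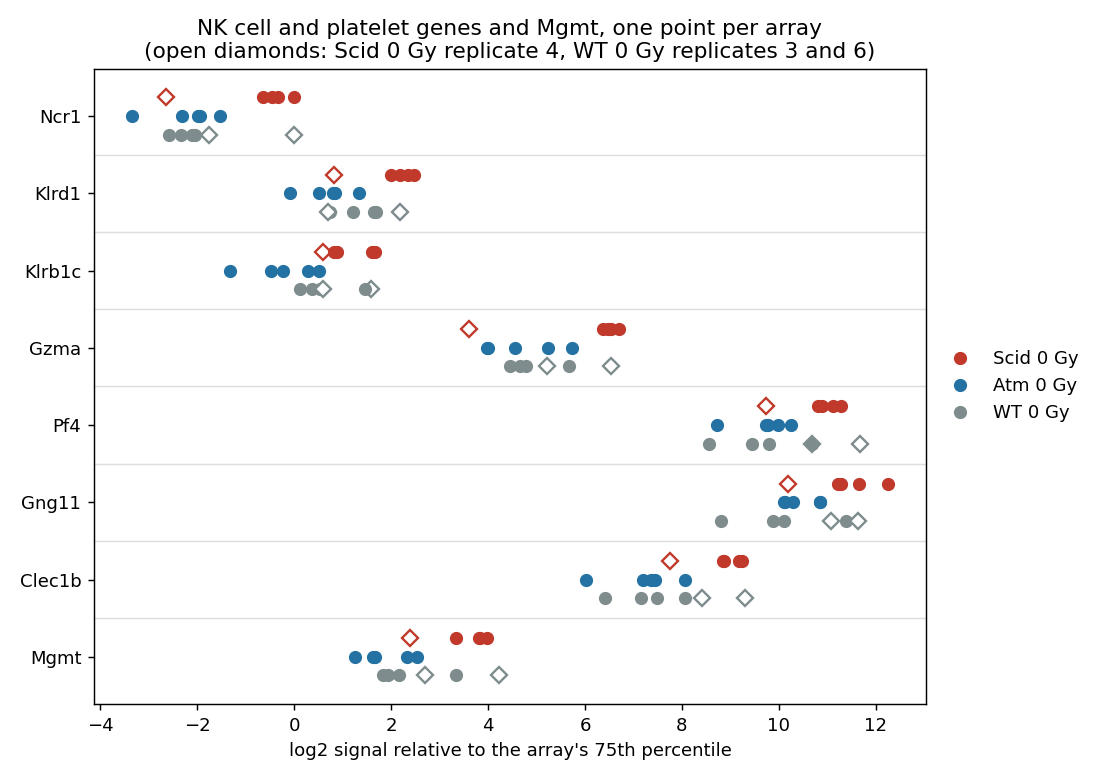
Log2 signal relative to the array's 75th percentile (x axis) for 4 NK cell genes, 3 platelet genes and Mgmt (y axis), with 1 point per array. For Gzma the 4 Scid arrays other than replicate 4 lie between 6.37 and 6.69 and the Atm arrays between 3.97 and 5.72, while Scid 0 Gy replicate 4 (open red diamond) is at 3.61.

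Platelet and megakaryocyte genes had a median difference of 0.83, with a higher mean for 24 of 25 (58.1% of all genes) and 0 called. The median was 0.45 with quantile normalization, 0.48 with normexp and 0.22 with spike-in scaling, under which 8 of the 25 had a lower mean. Pf4, platelet factor 4, differed by 1.07 and Gng11 by 0.87. Clec1b, the platelet receptor CLEC-2, read 9.17, 8.87, 8.85, 7.76 and 9.23 on the Scid arrays and 7.36, 7.44, 8.06, 7.20 and 6.01 on the Atm arrays. Scid replicate 4 lay inside the Atm range and the other 4 above it. The difference was 1.56 (adjusted p = 0.226, limma), and without replicate 4 Clec1b was among the 19 genes called higher.

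The 19 genes called higher without replicate 4, with differences from 1.04 to 2.48, were not found with all arrays, and those named here were picked after their values were seen. Mgmt, which repairs alkylated guanine in DNA, read 3.98, 3.83, 3.34, 2.39 and 3.80 in Scid and 1.26, 1.67, 2.53, 1.63 and 2.34 in Atm blood. Replicate 4 was again the lowest Scid array and fell inside the Atm range, and the difference was 1.58 with all arrays (adjusted p = 0.108, limma) and 1.85 without it. The respiratory chain genes Ndufa4 (1.27), Cox6b1 (1.29) and Cox5a (1.38) were also called without replicate 4. They were 3 of 77 tested in that list, beside 0.125% of all genes called higher. The list median was 0.22 beside 0.19 for all genes.

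**Figure D4:**
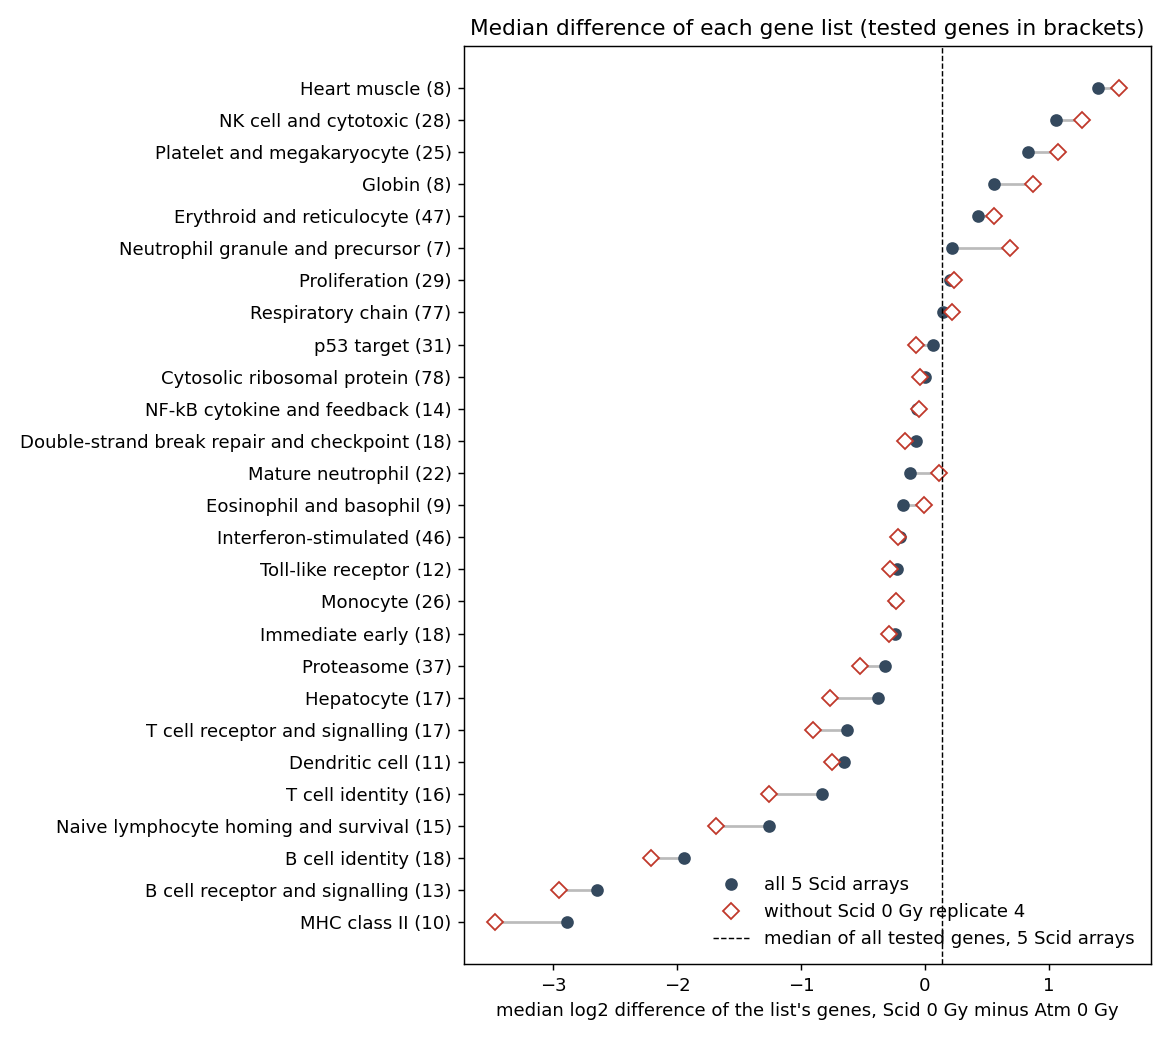
Median log2 difference of each of 27 gene lists, Scid 0 Gy minus Atm 0 Gy (x axis), with all 5 Scid arrays (filled circles) and without Scid 0 Gy replicate 4 (open diamonds); the dashed line is the median of all tested genes, 0.14. MHC class II and B cell lists are farthest below the line (-2.89 for MHC class II), and heart muscle (1.40) and NK cell lists (1.06) are farthest above it.

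No gene was called among mature neutrophil (22 tested, median -0.12), neutrophil granule (7, 0.22), eosinophil and basophil (9, -0.18), erythroid (47, 0.43), globin (8, 0.56), proliferation (29, 0.21) or interferon-stimulated genes (46, -0.20). The brightest neutrophil genes S100a9 and S100a8 differed by 0.37 and 0.20. Over all lists without a call, the 2 brightest genes of each, 44 in all, differed by -1.77 to 1.55 (adjusted p from 0.385 to 0.984, limma). The dendritic cell list (11 tested, median -0.65) held 1 called gene, Ly6d, and the Toll-like receptor list (12, -0.22) held Tlr1. Of all genes 0.125% were called lower.

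Lists tied to the mutated kinases showed no called gene. The p53 target list had a median of 0.07 over 31 genes, with Cdkn1a, the p21 cell cycle inhibitor, at -0.57 (adjusted p = 0.656), Gadd45a at 0.85 (0.473) and Phlda3 at 0.62 (0.656, all limma). Double-strand break repair and checkpoint genes had a median of -0.07 over 18, with H2ax at 0.74 and the Ku subunit Xrcc6 at -0.71. Ribosomal protein (78 genes, 0.00), proteasome (37, -0.32), NF-kB (14, -0.06) and immediate early genes (18, -0.24) had 0 called.

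Tissue transcripts varied widely between arrays of a group. The heart muscle list had a median of 3.99 on Scid 0 Gy replicate 2 and 1.90 on replicate 4, against -1.39 to 0.93 on the Atm arrays. The difference had a median of 1.40 with 0 of 8 called, and 8 of 8 had a higher mean in Scid blood (58.1% of all genes). On the 4 slides with 1 array of each group the list was higher in Scid by 0.94, 3.06, 0.52 and 3.08. In irradiated blood 8 of 8 were also higher, with a median of 1.17. The hepatocyte list reached 3.83 on Atm 0 Gy replicate 2 and 0.72 on Scid 0 Gy replicate 4, with the other 8 arrays from -2.92 to -1.07. Their part in the other results was not tested.

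Slides 1 to 4 each held 1 Scid and 1 Atm array. Within them the Cd79b difference was -7.60, -9.09, -8.46 and -1.08, the last on the slide of Scid replicate 4. For the kappa constant probe ENSMUST00000103410 it was -7.05, -9.66, -7.83 and -1.14. All 4 slides gave a lower Scid value for both, and the slide with replicate 4 gave the smallest gap. With slide as a block Cd79b differed by -7.30 (adjusted p = 0.0879, limma), and 0 genes were called.

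Neighbours of the targeted genes were counted by probe position in mm9. Within 20 Mb of the Prkdc probe on chromosome 16, 4 of 262 genes fell (1.53%, against 0.125% of all genes), and all 4 were lambda light chain transcripts, whose locus lies in that window. Within 20 Mb of the Atm probe on chromosome 9, 0 of 315 were called. Without Scid 0 Gy replicate 4 the counts were 8 of 262 near Prkdc (3.05%) and 5 of 315 near Atm (1.59%), the latter Cd3d, Cxcr5, Pou2af1, Cox5a and Nrg4, beside 1.34% of all genes.

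Against WT 0 Gy, which shares its arrays between both comparisons, 0 genes (0%) were called for Atm (342 at an unadjusted p under 0.05, 2.26%) and 0 for Scid (499, 3.29%). WT 0 Gy here includes replicates 3 and 6, which lacked B cell transcripts, and Scid 0 Gy includes replicate 4, which carried them. These counts therefore do not show that either group is like wild type. In irradiated blood, Scid at 3 Gy against Atm at 4 Gy, where both doses and genotypes differ, all 19 genes again had a lower mean, as 42.4% of all genes did, and 10 of them were called lower, beside 210 of all genes (1.39%). Cd79b lay from -3.65 to -0.01 in the 5 Scid 3 Gy arrays and from 3.05 to 5.72 in the 6 Atm 4 Gy arrays, so none of the Scid 3 Gy arrays reached the Atm range. The change of the Scid-Atm difference with irradiation was not called for any gene (limma; 639 at an unadjusted p under 0.05, 4.22%).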

How the data were processed

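Whole blood RNA of 32 mice was read on Agilent 1-colour arrays. The authors deposited the scanner output of each array. Its processed signal is a background-corrected intensity from Agilent Feature Extraction (11.5.1.1 per the file headers, 12.0.2 per the submitters' processing notes), with no scaling between arrays. A table of log2 values that the authors deposited served as an alternative. In it 98.1 to 99.1% of values matched the log2 scanner signal to 0.01 after a shift specific to the array, column medians were 5.51 to 6.44, and the origin of the shift is unknown. Outlier and control spots were left out. Log2 signals were set to each array's 75th percentile. Probes were kept that exceeded background clearly (Agilent's own call) on 4 or more arrays of some group (18367 of 39429), and the brightest per gene was used (15159 genes, 12209 with a RefSeq symbol). limma 3.58.1 in R 4.3.3 fitted 6 group means on 32 arrays, with two-sided p-values adjusted by Benjamini-Hochberg. Precision is limited by the number of arrays, which the design text says are individual mice. A limma run on simulated data recovered 12% of genes changed by 1 and 64% of genes changed by 2 on the log2 scale. The simulated noise was independent between genes and arrays, and each change was the same on every Scid 0 Gy array. No simulated array departed from its group as Scid 0 Gy replicate 4 did, so these shares may not hold for the real data.

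Genes were named where they were among the 15 largest called changes without overlap, the 5 largest called or 2 brightest of a list, or always looked up; exceptions are marked. The genes, lists and settings were chosen with earlier results of these data known, and the omission of single libraries after their lymphocyte transcripts were seen. Of the promoter motifs, 2 were picked from a member's own sequence.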

Additional observations from a re-analysis of the deposited data

Results flagged for a closer look

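In groups of 5 arrays, an array was singled out where its gap to the nearest other array took up more of the group's range than Dixon's 95% value allows, which chance does in about 1 in 20 groups. The 105 genes and 27 lists, each in both groups, gave 210 and 54 groups to look at. Many of the genes are lymphocyte or class II genes that vary together, so these groups are not independent. Scid 0 Gy replicate 4 had already been singled out by such transcripts, so its share here is a description. Most flagged values belonged to that array (19 genes and 1 list). It was high for Cd79b (5.41), Ms4a1 (3.68), Fcmr (3.69), Spib (2.27), Bank1 (0.51), H2-Oa (1.40), Cd3d (3.27), Cd6 (2.45), Ltb (4.56) and Alb (1.69). It was also high for the immunoglobulin transcripts ENSMUST00000103749 (4.90), AF138742 (5.25), ENSMUST00000103410 (5.58) and ENSMUST00000103426 (3.34), and for the median of the naive lymphocyte list (1.54). The same array was low for Gzma (3.61), Ncr1 (-2.65), Klrd1 (0.82), Clec1b (7.76) and Cox5a (6.22).

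Scid 0 Gy replicate 5, the dimmest of the 10 arrays with 25.0% of probes well above background, was low for Klf6 (0.85), Xrcc6 (-1.13) and the proliferation list median (-0.29), and high for Atp5j2 (12.6). Atm 0 Gy replicate 2 was high for Alb (4.78), Myh6 (1.45) and the medians of the hepatocyte (3.83), heart muscle (0.93) and respiratory chain lists (3.86).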

How the results depend on the processing

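The 19 lower genes passed in the main fit, which took the spread from all 32 arrays, at an adjusted p of at least 0.0491. The count was 0 with normexp background (94 genes at an unadjusted p under 0.05), quantile normalization (1517), the array median (1038), the percentile of probes detected on all arrays (2059), spike-in scaling (1272), the authors' values (1016), no filter on dim probes (1619), the mean of a gene's probes (1548), the 10 arrays alone (1618) and slide as a fixed block (1672), all by limma. It was 1 when only probes above background on every array were used, namely Cd79a, whose value is uncertain as said above. With array weights it was 630 lower and 641 higher. Leaving out 1 array gave 0 to 184 genes lower and 0 to 19 higher: 0 and 0 for every array except Scid 0 Gy replicate 4, whose omission gave 184 and 19. Slide as a random block gave 19 and scan day as a fixed block 25.

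Of the settings chosen after seeing the data, scan day 1 alone and leaving out both replicates 5 gave 0, and leaving out Scid 0 Gy replicate 4 with WT 0 Gy replicates 3 and 6 gave 400 lower and 50 higher. The replicate block gave 69 lower, and in the 10 arrays 36 lower and 1 higher. Same-numbered arrays correlated in their deviations by 0.129, 0.0972, -0.261, 0.170 and 0.413, so the numbers were not taken to pair the mice.

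With normexp the list medians shrank to -0.70 (B cell receptor), -0.40 (B cell identity), -0.37 (naive lymphocyte), -0.97 (MHC class II), -0.09 (T cell receptor), -0.04 (T cell identity) and 0.31 (NK cell). With only probes above background on every array they were -0.46 for B cell receptor (5 genes), 0.55 for T cell identity and 0.0085 for T cell receptor (6 genes each, the sign turned in both) and 0.38 for NK cell (5 genes), and the NK cell median was 0.45 with spike-in scaling. The cause was not tested. The median of all genes ran from -0.48 (spike-in scaling) to 0.34 (no filter on dim probes). Most B cell probes were not above background on 4 Scid arrays, which leaves their folds as rough limits.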
